A study of Saccharomyces cerevisiae with 6 samples.

Results

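The 10 genes described here comprise 7 hexose transporter genes, the hexokinase gene HXK1 (YFR053C) and the glucose sensor genes SNF3 (YDL194W) and RGT2 (YDL138W) of budding yeast. The transporters are HXT1 (YHR094C), HXT2 (YMR011W), HXT3 (YDR345C), HXT4 (YHR092C), HXT5 (YHR096C), HXT6 (YDR343C) and HXT7 (YDR342C). They were taken as a gene family by systematic name, and the rule sets no threshold on a measured value, although earlier results of these data were known when the family was chosen. All 10 were among the 6277 genes listed in the table. Their transcripts were measured by RNA sequencing of 3 strains after removal of ribosomal RNA from the total RNA, with 2 replicate libraries per strain. Rrp6 is the nuclear 3′ to 5′ exoribonuclease that associates with the RNA exosome, and the strains were compared to see how RNA levels depend on the Rrp6 protein and on its catalytic activity.

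All 3 strains were of BY4741/4743 background, were deleted for RRP6 and MTR4 on the chromosomes, and carried MTR4 on the plasmids pRS416 and pRS415. In rrp6Δ the third plasmid, pRS413, was empty. In Rrp6exo- it carried RRP6 D238N, which encodes a catalytically inactive enzyme, and in WT it carried RRP6. Cells were grown overnight at 30 °C in selective synthetic dextrose medium, brought back to 0.2 OD600 units and collected at midlog phase. Each strain was grown from individual clones with plasmid-borne alleles, so that a change particular to a clone and the spread between cultures cannot be told apart. Within each replicate number the libraries of the 3 strains shared a letter in the identifiers of their descriptions, B for replicate 1 and C for replicate 2. The labels do not say what the letter stands for.

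Between 34188755 and 39501874 reads per library fell on the listed genes. The unit throughout is the scaled count, which is the read count of a gene divided by the size factor of its library. RRP6 itself had 8.334 and 4.168 scaled counts in rrp6Δ (replicates 2 and 1), 21173 and 18538 in Rrp6exo-, and 21626 and 19503 in WT. The rrp6Δ libraries therefore matched their label for this gene, while gene counts cannot tell RRP6 D238N in Rrp6exo- from RRP6 in WT. The RNA of the MATalpha-specific genes summed to between 80456 and 103147 scaled counts and that of the MATa-specific genes STE2 and BAR1 to between 513 and 632.6. All 6 libraries had this MATalpha-type pattern, while BY4741 is known as a MATa strain and BY4743 as a diploid. Per the methods, the parental strain was a spore from a cross of a MATalpha mtr4Δ haploid with a MATa rrp6Δ strain. Such a cross can give spores of either mating type, and that of the spore used is not stated. RNA from the mitochondrial genome summed to 76123 and 60495 scaled counts in rrp6Δ (replicates 2 and 1), 40944 and 43634 in Rrp6exo-, and 44535 and 39509 in WT. Both sums of rrp6Δ lay above those of the other strains, and their part in the results on hexose genes was not tested. As the RNA came from whole cultures, fewer cells expressing a gene and less RNA per cell cannot be told apart.

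Yeast takes up glucose by facilitated diffusion through the Hxt proteins, which differ in affinity and in the glucose level at which their genes are transcribed. Snf3 and Rgt2 resemble transporters but act as receptors: they signal through the Yck kinases and the ubiquitin ligase Grr1 to remove the corepressors Mth1 and Std1, which relieves repression of HXT genes by Rgt1. In a separate branch, the repressor Mig1 keeps genes for high-affinity transport and for other carbon sources off while glucose is plentiful. The Snf1 kinase acts against Mig1 in this branch. Hxk1 phosphorylates the imported sugar, and its gene is repressed by glucose.

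The genes lie on 4 chromosomes, each as 1 uninterrupted coding exon that overlaps no other annotated gene in the R64 build. HXT4 (VIII, 287081 to 288811), HXT1 (VIII, 290913 to 292625) and HXT5 (VIII, 294669 to 296447) form a cluster on the minus strand of chromosome VIII. HXT7 (IV, 1154216 to 1155928), HXT6 (IV, 1159608 to 1161320) and HXT3 (IV, 1162957 to 1164660) form another on the minus strand of chromosome IV. SNF3 (IV, 111580 to 114234) and RGT2 (IV, 213351 to 215642) are on the plus strand of chromosome IV, far from that cluster. HXT2 (XIII, 288079 to 289704) is on the plus strand of chromosome XIII and HXK1 (VI, 253592 to 255049) on the minus strand of chromosome VI.

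HXT6 and HXT7 are near-identical copies, which limits what their counts can show. Their coding sequences, of 1713 bases each, differ at only 3 positions, and all 3 fall in the last stretch of the reading frame. These are bases 1588 to 1677 counted from the A of each start codon, printed on the coding strand with the differing bases in capitals (R64, chrIV:1159644-1159733 for HXT6 and chrIV:1154252-1154341 for HXT7, minus strand).
HXT6: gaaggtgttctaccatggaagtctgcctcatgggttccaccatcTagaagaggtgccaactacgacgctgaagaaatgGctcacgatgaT
HXT7: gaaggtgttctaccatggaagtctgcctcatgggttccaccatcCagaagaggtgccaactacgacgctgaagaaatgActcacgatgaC
Only 82 of the 1664 windows of 50 bases in each gene (4.93%) occur once in the genome, whereas for the other members this share ran from 85.1% (HXT3) to 100%. Read counts of HXT6 and HXT7 are therefore uncertain, and their levels cannot be ranked against those of the other genes. By coding sequence the next closest pairs were HXT1 and HXT3 (81.9% identity), and HXT4 and HXT7 (81.7%). HXT2 was the most distant transporter, at 62.9% to 67.8% identity to the other 6 HXT genes. The sensor genes SNF3 and RGT2 were 56.2% identical to each other.

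The 500 bases before each start codon were searched on both strands for CGGANNA, known as the Rgt1 site, for GCGGGG or GTGGGG, known as the Mig1 site, and for AGGGG, the stress response element. No matches overlapped among the 10 genes. The stretches below are those of the 4 genes that the results turn on most. HXT3 and HXT2 were the most abundant transporters apart from HXT6 and HXT7, which were not ranked. HXT4 and HXK1 are transporter and kinase genes with large differences between the replicate numbers. Each stretch holds all matches found for its gene, in capitals, and is written 5′ to 3′ on the strand of the gene (R64, chrIV:1164963-1165112, minus; chrXIII:287639-287933, plus; chrVIII:289046-289287, minus; chrVI:255372-255549, minus).
HXT3: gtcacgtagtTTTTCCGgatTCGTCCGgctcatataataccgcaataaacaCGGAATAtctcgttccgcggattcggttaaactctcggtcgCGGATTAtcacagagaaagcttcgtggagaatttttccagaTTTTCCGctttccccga
HXT2: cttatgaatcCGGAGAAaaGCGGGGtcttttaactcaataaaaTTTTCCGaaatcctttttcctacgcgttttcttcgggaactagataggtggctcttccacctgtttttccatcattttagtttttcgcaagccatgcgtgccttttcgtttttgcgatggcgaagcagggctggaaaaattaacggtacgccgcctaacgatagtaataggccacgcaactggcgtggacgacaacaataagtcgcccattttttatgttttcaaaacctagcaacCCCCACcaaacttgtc
HXT4: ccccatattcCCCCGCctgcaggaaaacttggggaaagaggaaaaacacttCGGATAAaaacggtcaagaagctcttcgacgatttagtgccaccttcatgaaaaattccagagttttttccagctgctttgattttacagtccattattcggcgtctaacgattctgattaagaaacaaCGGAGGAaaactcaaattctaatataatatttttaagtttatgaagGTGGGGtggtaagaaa
HXK1: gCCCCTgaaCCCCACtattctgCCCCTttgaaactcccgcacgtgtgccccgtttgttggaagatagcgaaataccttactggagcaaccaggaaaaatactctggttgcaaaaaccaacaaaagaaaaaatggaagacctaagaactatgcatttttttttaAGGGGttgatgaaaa

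CGGANNA occurred 5 times before HXT3, 4 times before HXT1, 2 times before HXT2 and HXT4, and once before HXT5 and HXT6, and was not found before HXT7, HXK1, SNF3 or RGT2. Among 6000 promoters of the same length, 42% held it and 2.48% held 3 or more matches. GCGGGG or GTGGGG occurred 2 times before HXT2, HXT4 and HXT6, and once before HXT1, HXT7 and HXK1, and 13.6% of promoters held it. AGGGG occurred 3 times before HXK1, 2 times before HXT5 and HXT7, and once before HXT1 and RGT2, and 34.1% of promoters held it. HXK1 was the only gene of the 10 with 3 or more AGGGG matches, as 1.83% of promoters had, and it also held 1 match to GTGGGG on its other strand. SNF3 held none of the 3 motifs in this window. These matches describe letters in the sequence and were not tested for binding.

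Levels were compared between the genes per kb of coding length. HXT6 and HXT7 were left out of this ranking because their counts are uncertain. Among the other members HXT3, a low-affinity transporter, was the most abundant in each of the 6 libraries, with 26198 to 48796 scaled counts per kb. HXT2, which is induced at low glucose and has higher affinity, was second in each, with 9303 to 32032 per kb. HXK1, HXT1 and HXT4 took places 3 to 5 in changing order. HXK1 ranged from 4193 to 24782 per kb, HXT1 from 3583 to 5038 and HXT4 from 2075 to 7475. HXT4 stood above HXT1 in all 3 replicate 2 libraries and below it in all 3 replicate 1 libraries, so this pair had no fixed order. RGT2 followed at 990.3 to 1322 per kb and SNF3 at 263.8 to 403.4, so the sensor gene for high glucose was more abundant than that for low glucose in every library. HXT5, a transporter known from slow growth and starvation, was at 71.53 to 287.6 per kb.

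**Figure D1:**
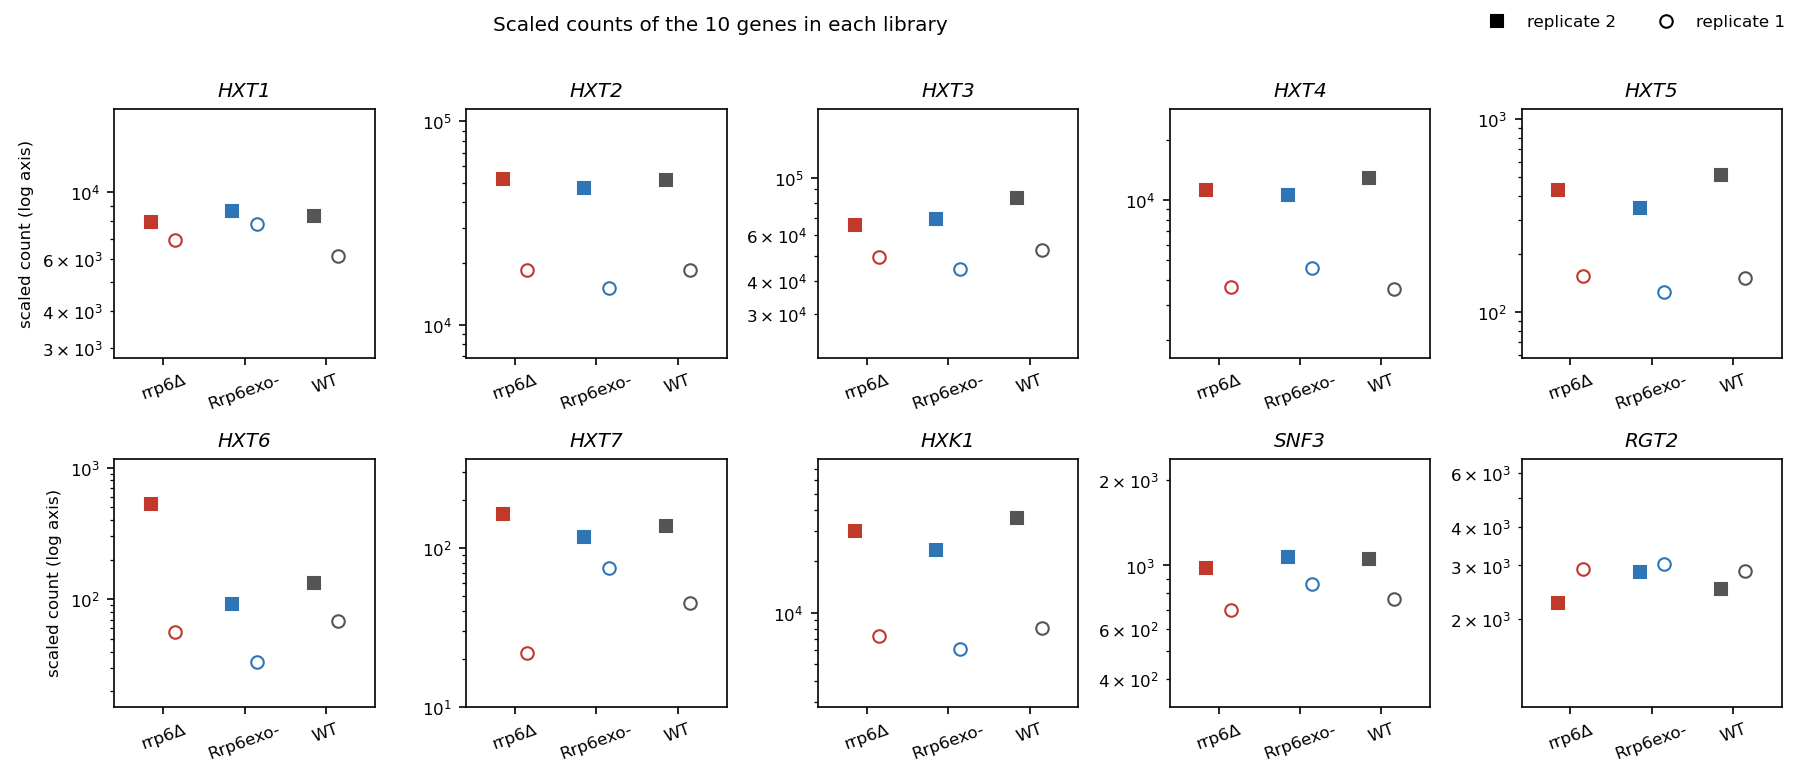
Scaled counts (log axis) of each of the 10 genes in every library, with rrp6Δ, Rrp6exo- and WT from left to right; filled squares are replicate 2 and open circles replicate 1 of each strain. In 9 genes all squares lie above all circles, as in HXK1 (23353 to 36132 against 6113 to 8163), whereas in RGT2 the squares lie below (2270 to 2852 against 2884 to 3031).

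To determine whether the hexose genes depend on Rrp6 protein or its activity, the strains were compared in limma fits across all 6277 genes on log2(scaled count + 1), with p-values adjusted by Benjamini-Hochberg over all genes and a threshold of 0.05. None of the 10 genes passed in rrp6Δ against WT, in Rrp6exo- against WT or in rrp6Δ against Rrp6exo-. None had an unadjusted p under 0.05 in these fits, whereas 1044, 1069 and 343 of the 6277 genes did, in the same order. Without the replicate number, edgeR and DESeq2 also called 0 of the 10, with their counts over all genes given further below. Among all genes, limma called 0.175% in rrp6Δ against WT, 0.112% in Rrp6exo- against WT and 0.0159% in rrp6Δ against Rrp6exo-, and 0 of 10 does not set the hexose genes apart from that background. In no comparison did the libraries of a pair of strains separate for any of the 10. For these genes separation was not possible, because in each of the 10 all replicate 2 libraries lay above or below all replicate 1 libraries. The shares of all genes that separated were 50.0% in rrp6Δ against WT, 45.2% in Rrp6exo- against WT and 33.2% in rrp6Δ against Rrp6exo-. The 10 genes cannot be read against these shares. With 2 libraries per strain an exact two-sided permutation test of 1 gene cannot give a p below 0.333, and none was run.

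For the low-affinity transporters the libraries of the 3 strains overlapped, as the gap between the replicate numbers required. HXT3 had 65450 and 49688 scaled counts in rrp6Δ (replicates 2 and 1), 69408 and 44641 in Rrp6exo-, and 83149 and 52701 in WT. The log2 fold change was −0.22 (SE 0.30, adjusted p = 0.788, limma) for rrp6Δ against WT and −0.25 (SE 0.30, adjusted p = 0.732) for Rrp6exo- against WT. For this transporter, the 2 libraries of 1 strain were further apart than the strain means. HXT1, which is induced by high glucose, had 7953 and 6937 scaled counts in rrp6Δ, 8630 and 7813 in Rrp6exo-, and 8335 and 6138 in WT. Its log2 fold changes were 0.05 (SE 0.16, adjusted p = 0.917, limma) in rrp6Δ and 0.20 (SE 0.16, adjusted p = 0.592) in Rrp6exo-. HXT1 thus had the narrowest error of the 7 transporters.

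In the transporters known for low glucose or slow growth, the libraries of each strain lay further apart than the strain means. HXT2 had 52084 and 18561 scaled counts in rrp6Δ (replicates 2 and 1), 47252 and 15127 in Rrp6exo-, and 51299 and 18490 in WT. HXT4 had 11221 and 3694 in rrp6Δ, 10642 and 4571 in Rrp6exo-, and 12939 and 3592 in WT. HXT5 had 428.7 and 153.2 in rrp6Δ, 345.9 and 127.3 in Rrp6exo-, and 511.6 and 150.3 in WT. In each of these genes every replicate 2 library lay above every replicate 1 library, whatever the strain. The strain differences were therefore small beside their errors: the log2 fold change of HXT2 was 0.01 (SE 0.78) in rrp6Δ and −0.20 (SE 0.78) in Rrp6exo-, each against WT. For HXT4 it was −0.08 (SE 0.81) in rrp6Δ and 0.03 (SE 0.81) in Rrp6exo-, and for HXT5 −0.11 (SE 0.81) and −0.40 (SE 0.81).

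HXT6, which with HXT7 encodes the high-affinity transporters repressed by glucose, had 1 library apart from the rest. Its scaled count was 527.8 in replicate 2 of rrp6Δ (570 reads) and 56.27 in replicate 1, against 92.45 and 33.03 in Rrp6exo-, and 133.1 and 67.78 in WT. The log2 fold change was 0.86 (SE 1.09, adjusted p = 0.762, limma) for rrp6Δ against WT and 1.63 (SE 1.09, adjusted p = 0.904) for rrp6Δ against Rrp6exo-. Within replicate 2 the log2 difference of rrp6Δ was 1.98 from WT and 2.50 from Rrp6exo-, and within replicate 1 it was −0.26 from WT and 0.75 from Rrp6exo-. The direction from WT thus differed between the pairs, and the direction from Rrp6exo- was shared by them. HXT7 had 163.9 and 21.88 scaled counts in rrp6Δ (replicates 2 and 1), 116.3 and 74.8 in Rrp6exo-, and 137.2 and 45.18 in WT. The rrp6Δ libraries held both the highest and the lowest HXT7 value of the 6. With HXT6 and HXT7 summed into 1 gene, the log2 fold change was 0.41 in rrp6Δ (adjusted p = 0.897, limma) and −0.22 in Rrp6exo- (adjusted p = 0.945), each against WT.

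HXK1 had the lowest levels in Rrp6exo- within each replicate number. It had 30289 and 7332 scaled counts in rrp6Δ (replicates 2 and 1), 23353 and 6113 in Rrp6exo-, and 36132 and 8163 in WT. In limma without the replicate number, the log2 fold change was −0.20 (SE 1.04, adjusted p = 0.953) in rrp6Δ and −0.52 (SE 1.04, adjusted p = 0.853) in Rrp6exo-. When the replicate number was included as a block, HXK1 was lower in Rrp6exo- than in WT (−0.52, SE 0.08, adjusted p = 0.00972). Both pairs had this direction, with a log2 difference of −0.63 in replicate 2 and −0.42 in replicate 1. Under the same fit the difference in rrp6Δ against WT did not pass (−0.20, SE 0.08, adjusted p = 0.116), nor did that in rrp6Δ against Rrp6exo- (0.32, SE 0.08, adjusted p = 0.16).

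The sensor genes had small errors, as HXT1 did. SNF3 had 977 and 700.3 scaled counts in rrp6Δ (replicates 2 and 1), 1071 and 862.6 in Rrp6exo-, and 1053 and 761.3 in WT. RGT2 had 2270 and 2932 in rrp6Δ, 2852 and 3031 in Rrp6exo-, and 2508 and 2884 in WT. The libraries of the 3 strains overlapped in both genes, again as the gap between the replicate numbers required. For rrp6Δ against WT the log2 fold change of SNF3 was −0.11 (SE 0.24) and that of RGT2 −0.06 (SE 0.15), and for Rrp6exo- against WT they were 0.10 (SE 0.24) and 0.13 (SE 0.15).

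With the replicate block, HXK1 in Rrp6exo- was thus the only call among the 10. In Rrp6exo- against WT this fit called 7.04% of all genes as lower and 5.70% as higher, and 1 and 0 of the 10 hexose genes, of which 4 had an unadjusted p under 0.05. In rrp6Δ against WT it called 6.04% of all genes as lower and 5.43% as higher, and none of the 10, of which 1 had an unadjusted p under 0.05. In rrp6Δ against Rrp6exo- it called 0.0319% of all genes and none of the 10, of which 3 had an unadjusted p under 0.05. Among all 6277 genes, an unadjusted p under 0.05 was reached by 2038 in Rrp6exo- against WT, 2009 in rrp6Δ against WT and 976 in rrp6Δ against Rrp6exo-. DESeq2 with the block called HXK1 in Rrp6exo- against WT as well. In rrp6Δ against Rrp6exo- it called HXT6 (log2 fold change 1.82, adjusted p = 0.00597) and HXK1 (0.32, adjusted p = 0.0419), which limma and edgeR did not. DESeq2 also called more of all genes there than limma did, with the counts given in the last section. HXT6 had 570 reads in replicate 2 of rrp6Δ and 54 in replicate 1, and its counts are uncertain beside HXT7. The 2 mutants were compared with the same WT libraries, so their differences from WT are not independent.

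**Figure D2:**
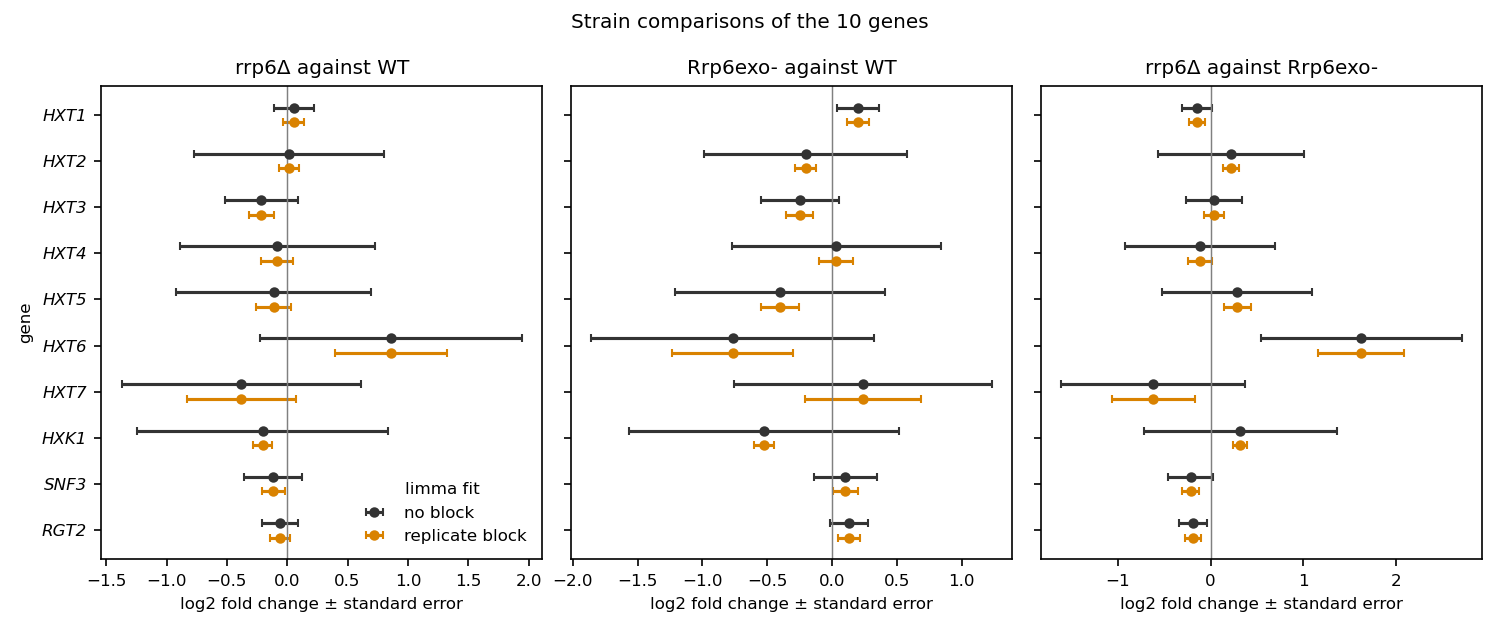
Log2 fold change with its standard error for the 10 genes in rrp6Δ against WT, Rrp6exo- against WT and rrp6Δ against Rrp6exo-, from limma without the replicate number (dark) and with it as a block (orange). The point of each gene is the same in both fits while the error shrinks with the block, as in HXK1 of Rrp6exo- (−0.52, SE 1.04 without and 0.08 with the block), and the widest errors with the block are those of HXT6 and HXT7.

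The larger contrast for these genes was between the replicate numbers of the labels. It was read from the same limma fit, with strain and replicate number as terms, and was chosen for description after the values had been seen. In this fit 9 of the 10 genes were higher in replicate 2 than in replicate 1 (adjusted p under 0.05), beside 10.3% of all genes called higher and 6.48% called lower. The median log2 difference over the 10 was 1.55, against −0.01 over all genes. Likewise, in 9 of the 10 all 3 replicate 2 libraries lay above all 3 replicate 1 libraries, which held for 12.9% of all genes, and RGT2 was the 1 gene in which they lay below, as 11.0% of all genes did. What the number stands for was not given, and clone, culture, RNA preparation and library letter cannot be told apart.

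HXK1 had the largest difference, with a log2 value of 2.04 (SE 0.06, adjusted p = 3.86e-06, limma) for replicate 2 against replicate 1. Its level was 4.13 times higher in replicate 2 of rrp6Δ, 3.82 times in Rrp6exo- and 4.43 times in WT, so the size of the difference was close in the 3 strains. HXT2 differed by 1.53 (SE 0.07, adjusted p = 1.12e-05), HXT4 by 1.56 (SE 0.11, adjusted p = 8.19e-05) and HXT5 by 1.56 (SE 0.12, adjusted p = 0.00014). For HXT2 the ratio of replicate 2 to replicate 1 was 2.81 in rrp6Δ, 3.12 in Rrp6exo- and 2.77 in WT. It was 3.04 in rrp6Δ, 2.33 in Rrp6exo- and 3.60 in WT for HXT4, and 2.80 in rrp6Δ, 2.72 in Rrp6exo- and 3.40 in WT for HXT5, so each of these transporters differed at least 2-fold in every strain. At least a 2-fold difference between replicates in either direction was seen in only 4.41% of all genes in rrp6Δ, 4.24% in Rrp6exo- and 4.87% in WT.

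HXT6 and HXT7 differed by 1.88 (SE 0.38, adjusted p = 0.0146, limma) and 1.69 (SE 0.37, adjusted p = 0.0193), with less even sizes. The ratio for HXT6 was 9.38 in rrp6Δ, 2.80 in Rrp6exo- and 1.96 in WT, and that for HXT7 was 7.49 in rrp6Δ, 1.56 in Rrp6exo- and 3.04 in WT. When either rrp6Δ library was left out, HXT7 was no longer called (1.11, adjusted p = 0.0686 without replicate 1 and 0.0756 without replicate 2), while HXT6 still was (1.21, adjusted p = 0.0284 and 0.0378). The transporters of low affinity differed less than the others: HXT3 by 0.56 (SE 0.09, adjusted p = 0.00442) and HXT1 by 0.26 (SE 0.07, adjusted p = 0.0419). The sensor genes moved apart, with SNF3 at 0.42 (SE 0.08, adjusted p = 0.0101) and RGT2 at −0.22 (SE 0.07, adjusted p = 0.0713).

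The smaller differences depended on scaling and on which strains entered the comparison. With every library set to the same total, which shifts the median of all genes to −0.09, HXT1 (0.18, adjusted p = 0.141) and SNF3 (0.34, adjusted p = 0.0519) lost their calls and RGT2 gained one as lower (−0.30, adjusted p = 0.0245). With the same upper quartile, HXT1 was not called (0.22, adjusted p = 0.0587) and RGT2 was (−0.26, adjusted p = 0.0329). Of the 10 genes, 6 were called without either rrp6Δ library and 6 without either WT library, whereas 10 were called without either Rrp6exo- library. HXT1 and SNF3 were lost when any 1 library of rrp6Δ or WT was left out, and HXT3 was lost without either WT library (0.52, adjusted p = 0.0828 without replicate 1 and 0.0715 without replicate 2). Leaving out either library of a strain takes that strain out of this comparison, so both fits give the same estimate. They are not separate checks of single libraries. Across these fits the log2 difference ranged over 1.99 to 2.10 for HXK1 and 1.48 to 1.57 for HXT2. It ranged over 1.41 to 1.73 for HXT4, 1.46 to 1.62 for HXT5 and 1.21 to 2.33 for HXT6.

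**Figure D3:**
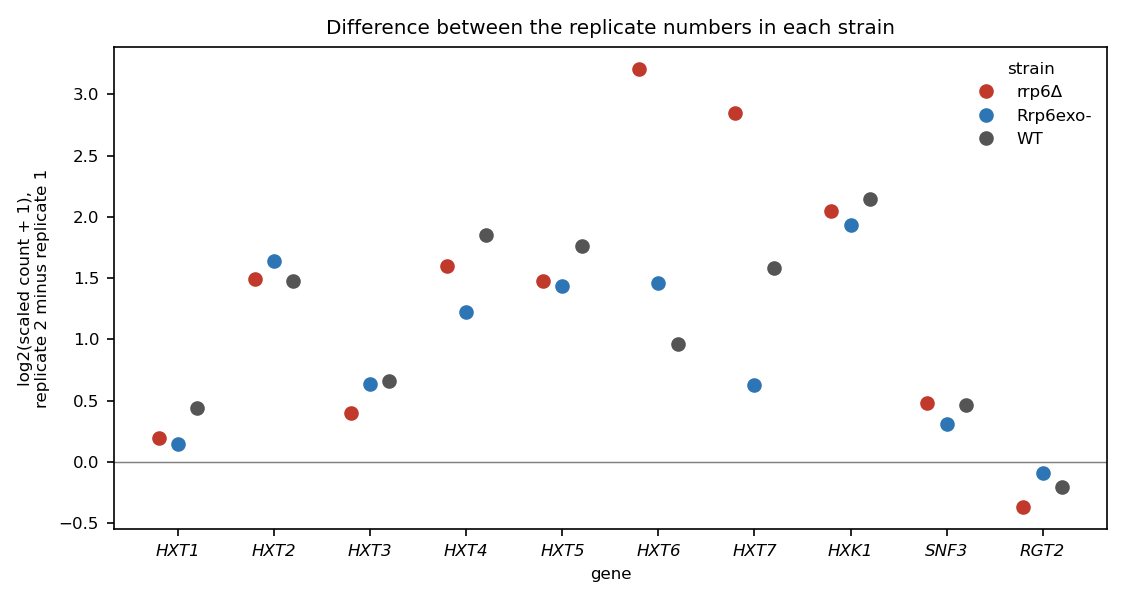
Difference on the log2(scaled count + 1) scale, replicate 2 minus replicate 1, for each of the 10 genes within rrp6Δ (red), Rrp6exo- (blue) and WT (grey). Only RGT2 lies below 0, HXK1 lies close to 2 in all strains (2.05, 1.93 and 2.15), and HXT6 and HXT7 of rrp6Δ stand highest (3.21 and 2.85).

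Genes of the same pathways were then read from the fit with the block, in lists drawn up with earlier results of these data known. Among the other members of the HXT family, 9 of 11 were listed and HXT15 and HXT16 were not analysed here. None of the 9 was called in either mutant against WT. Only HXT8 was higher in replicate 2 (log2 difference 1.12, adjusted p = 0.0313, limma), at 37.04 and 12.51 scaled counts in rrp6Δ (replicates 2 and 1), 37.4 and 17.49 in Rrp6exo-, and 19.76 and 10.8 in WT. The median of the 9 genes was 0.32, below that of the 10 hexose genes, and 10.3% of all genes were called higher. All 9 had few reads per library, from 2 for HXT13 to 59 for HXT9, both in replicate 2 of WT. Differences of such low genes are understated on the log2(scaled count + 1) scale and are hard to call. The 2 medians are therefore not an even comparison.

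Among the signalling genes between the sensors and the HXT promoters, RGT1, the repressor of HXT genes, was higher in both mutants, 1 of the 6 genes on this list to pass. It had 8622 and 8282 scaled counts in rrp6Δ (replicates 2 and 1), 10593 and 9705 in Rrp6exo-, and 6369 and 5646 in WT. With the block its log2 fold change was 0.49 (SE 0.07, adjusted p = 0.0089, limma) in rrp6Δ and 0.76 (SE 0.07, adjusted p = 0.00134) in Rrp6exo-, while without the block the adjusted p was 0.135 and 0.0561. The fit with the block called 5.43% of all genes higher in rrp6Δ and 5.70% in Rrp6exo-. All 4 mutant libraries lay above both WT libraries, a separation in either direction that 50.0% of all genes had in rrp6Δ against WT and 45.2% in Rrp6exo- against WT. Between the replicate numbers RGT1 was not called, but the corepressor genes were: MTH1 was higher in replicate 2 (1.52, SE 0.08, adjusted p = 2.18e-05) and STD1 lower (−0.23, SE 0.06, adjusted p = 0.0375). MTH1 had 9510 and 3573 scaled counts in rrp6Δ, 9263 and 3519 in Rrp6exo-, and 10382 and 3082 in WT, a separation like that of HXT2. Between these numbers 10.3% of all genes were called higher and 6.48% lower.

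Of the 13 genes of the Snf1 and Mig1 branch, none was called in rrp6Δ and TOS3, a Snf1-activating kinase, was higher in Rrp6exo- (0.56, adjusted p = 0.0162, limma with the block). That fit called 5.43% of all genes higher in rrp6Δ and 5.70% in Rrp6exo-. In replicate 2 against replicate 1, 10.3% of all genes were called higher and 6.48% lower. On this list SNF1, REG1, MIG1 and MIG3 were higher and ELM1, another upstream kinase, was lower. The largest of these differences was 0.51 (SE 0.05, adjusted p = 0.000617) for MIG1, so the regulators moved less than the HXT genes induced at low glucose.

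Downstream of sugar uptake, with the block, 3 of 19 genes of glucose phosphorylation and glycolysis were lower in rrp6Δ than in WT and none higher (GLK1, PGK1 and ADH1), and 5 were lower in Rrp6exo- (HXK2, GLK1, TDH2, PGK1 and ADH1), beside 6.04% of all genes called lower in rrp6Δ and 7.04% in Rrp6exo-. ADH1, the main fermentative alcohol dehydrogenase, had 109990 and 108445 scaled counts in rrp6Δ (replicates 2 and 1), 131524 and 73749 in Rrp6exo-, and 210984 and 197734 in WT. GLK1, the glucokinase, had 21110 and 8751 in rrp6Δ, 21708 and 8392 in Rrp6exo-, and 32642 and 10176 in WT, with a log2 fold change of −0.42 (adjusted p = 0.0409, limma with the block) in rrp6Δ and −0.43 (adjusted p = 0.0361) in Rrp6exo-. HXK2, the hexokinase used in plentiful glucose, had 64142 and 50921 in rrp6Δ, 61514 and 32574 in Rrp6exo-, and 75635 and 61780 in WT. In Rrp6exo- all 3 genes for enzymes that phosphorylate glucose (HXK1, HXK2 and GLK1) were thus called lower than in WT with the block, and none of them without it. The median over the 19 genes was −0.33 in rrp6Δ and −0.32 in Rrp6exo-, beside 0.01 over all genes in each. Without the block none of the 19 passed.

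Between the replicate numbers the glycolytic genes differed little, with a median of 0.11 and 3 of 19 called higher (HXK2, GLK1 and PYK2). Genes for other carbon sources that glucose represses did differ: 10 of 11 were higher in replicate 2 and none lower, with a median log2 difference of 0.96. CAT8, an activator of gluconeogenic genes, differed by 1.87 (SE 0.07, adjusted p = 5.06e-06, limma) and JEN1, the lactate permease, by 1.47 (SE 0.09, adjusted p = 3.66e-05). SUC2, which encodes invertase, had 9872 and 5672 scaled counts in rrp6Δ (replicates 2 and 1), 9421 and 4546 in Rrp6exo-, and 10903 and 5964 in WT. Trehalose and glycogen genes behaved likewise, with 10 of 11 higher, none lower and a median of 1.10. GSY1, a glycogen synthase, differed most, with 7116 and 983.7 scaled counts in rrp6Δ, 5741 and 606.2 in Rrp6exo-, and 12014 and 1446 in WT (log2 difference 3.05, SE 0.08, adjusted p = 3.86e-06). These counts stand beside 10.3% of all genes called higher.

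Against WT, 3 of the 11 trehalose and glycogen genes were lower in rrp6Δ (GSY1, GLC3 and UGP1) and 5 in Rrp6exo- (TPS1, TPS2, GSY1, GLC3 and UGP1), with the block, which called 6.04% of all genes lower in rrp6Δ and 7.04% in Rrp6exo-. GSY1 was lower by −0.66 (adjusted p = 0.0115, limma) in rrp6Δ and −1.16 (adjusted p = 0.00129) in Rrp6exo-. Of the 11 glucose-repressed genes, MLS1 was lower in rrp6Δ, and MLS1, SUC2 and ACS1 were lower and STL1 higher in Rrp6exo-. The same fit called 5.70% of all genes higher in Rrp6exo-. STL1 rested on few reads, 29 and 19 in Rrp6exo- (replicates 2 and 1) and 12 and 3 in WT. None of the trehalose, glycogen and glucose-repressed genes was called without the block.

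**Figure D4:**
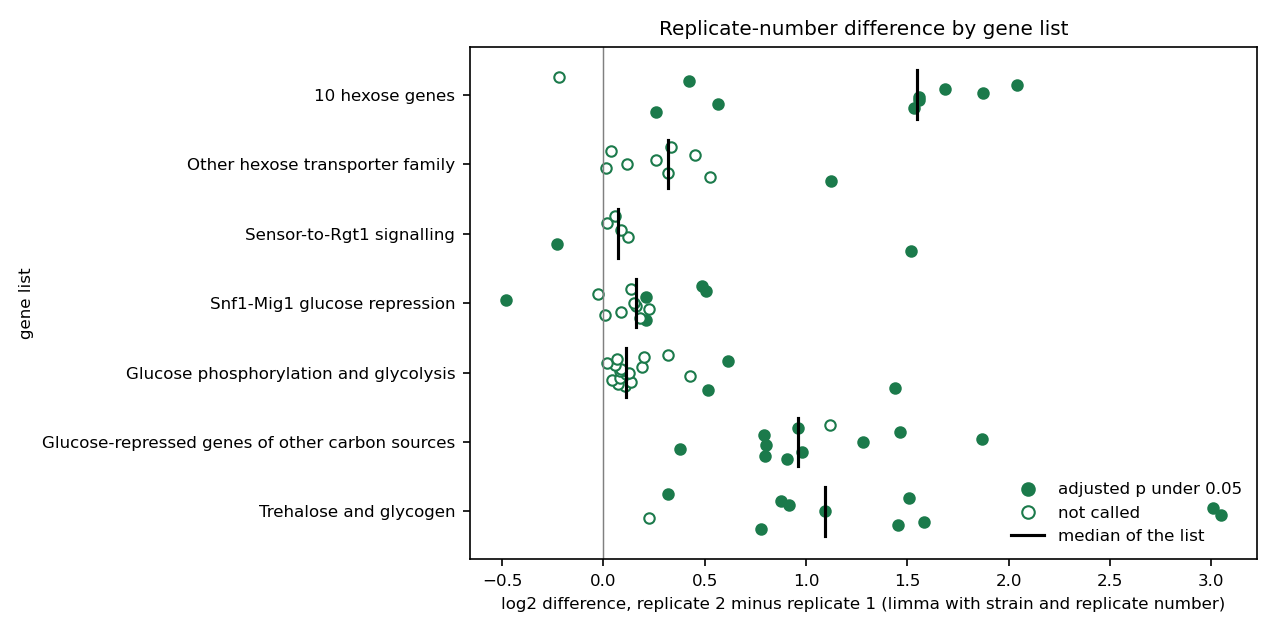
Log2 difference, replicate 2 minus replicate 1, from limma with strain and replicate number, for the 10 hexose genes and the genes of each pathway list; filled points have an adjusted p under 0.05 and the bar is the median of the list. The medians are 1.55 for the hexose genes, 0.96 for glucose-repressed genes and 1.10 for trehalose and glycogen genes, while glycolysis lies at 0.11 and the Snf1 and Mig1 branch at 0.16.

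The annotated genes next to the 10 gave a local comparison. Of 13 such neighbours in the table that are not hexose genes, 1 was called between the replicate numbers. Among all genes 10.3% were called higher and 6.48% lower. The neighbour called was PAL2, which lies 937 bases from HXT5. It had 4673 and 2010 scaled counts in rrp6Δ (replicates 2 and 1), 4617 and 2151 in Rrp6exo-, and 4467 and 1856 in WT (log2 difference 1.19, adjusted p = 1.87e-05, limma). The median over the 13 neighbours was 0.08. With the block, SEC31 beside SNF3 (−0.41, adjusted p = 0.03, limma) and ARF2 beside RGT2 (−0.58, adjusted p = 0.0182) were lower in rrp6Δ than in WT. MSR1, NUS1 and ARF2 were lower in Rrp6exo-. The same fit called 6.04% of all genes lower in rrp6Δ and 7.04% in Rrp6exo-, and no neighbour was called without the block. AHT1, the open reading frame between HXT4 and HXT1 on the opposite strand, had 1.04 to 12.47 scaled counts in the 6 libraries, and no member of the HXT4, HXT1 and HXT5 cluster was called between strains.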

How the data were processed

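Per the labels and the methods of the study, ribosome-depleted total RNA was sequenced as paired, stranded libraries and aligned with STAR to sacCer3. The alignments were processed with Picard 1.124 and reads were counted per gene with HTSeq 0.5.3 on the R64 annotation. The strand setting of the counting and the handling of reads with several matches are not given in the sources used here. The values as deposited are a signal, here called scaled counts: the authors divided each library's read counts by its DESeq size factor (0.96 to 1.08). All columns of values were used and each was matched to its sample by library name. With 1 read taken as the smallest step, 100.0% of values were whole reads within 0.001. No molecular identifiers separate PCR copies, so reads are not independent molecules.

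Here, limma 3.58.1 (R 4.3.3) was fitted with a variance trend to log2(scaled count + 1) of all 6 libraries, with strain as the only term. Fold changes on this scale understate those of low genes. A minimum summed scaled count of 10 removed 0 genes. P-values are two-sided and adjusted by Benjamini-Hochberg over 6277 genes, with a threshold of 0.05. The labels number replicates 1 and 2 in each strain and the library identifiers in their descriptions share a letter within a number. The difference between the replicates of a strain correlated across genes between rrp6Δ and Rrp6exo- (r = 0.46), rrp6Δ and WT (r = 0.59) and Rrp6exo- and WT (r = 0.55). From this and the labels, the numbers were read as pairing the libraries. A fit with the replicate block is given where it changes a call. With 2 replicates per strain such correlations could also arise among unrelated libraries, so they cannot establish the pairing. The reading was drawn in part from these same data, and calls made only with the block rest on it. The methods of the study name individual clones, and p-values of the fit without the block measure the spread between the libraries of a strain. With the block, the difference between the numbers that the strains share is taken out. Its p-values measure only the spread that remains.

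Alternatives were edgeR 4.0.16 and DESeq2 1.42.0 on the recovered reads, with and without the block, pseudocounts of 0.5 and 10, a minimum of 10 on the mean scaled count (292 genes fewer), libraries set to an equal total or upper quartile, the 4 libraries compared, each library left out, and HXT6 and HXT7 summed. On those reads edgeR called 11 genes in rrp6Δ against WT, 6 in Rrp6exo- against WT and 1 in rrp6Δ against Rrp6exo- without the block. The comparison of replicate numbers with its alternatives, and the block with HXT6 and HXT7 summed, were chosen after seeing the data. The fits were tested on simulated data. Of the listed genes, 5754 were matched to R64 and 523 were not. Coding identity is from global alignments. The members, defined by gene name alone, and the gene lists were chosen with earlier results of these data known. Genes named are the members, RRP6, their neighbours, list genes called in a strain comparison, and, chosen after their values were seen, list genes called between the replicate numbers.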

Additional observations from a re-analysis of the deposited data

How the results depend on the processing

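The count of hexose genes called between strains stayed at 0 under the alternatives without the replicate number. In Rrp6exo- against WT it was 1 with the replicate block in limma, edgeR and DESeq2 and with HXT6 and HXT7 summed with the block, and in rrp6Δ against Rrp6exo- it was 2 in DESeq2 with the block. The number of all genes called depended far more on the block. In rrp6Δ against WT, 11 genes were called, against 720 with the replicate block, 717 in edgeR with the block, 504 in DESeq2, 800 in DESeq2 with the block, 722 with HXT6 and HXT7 summed and the block, 25 with the same total, 1 with the 4 libraries alone and 1 to 3 with 1 library left out. In Rrp6exo- against WT, 7 genes were called, against 800 with the replicate block, 797 in edgeR with the block, 517 in DESeq2, 840 in DESeq2 with the block, 805 with the sum and the block, 37 with the same total, 21 with the same upper quartile, 3 with the 4 libraries alone and 0 to 3 with 1 library left out. In rrp6Δ against Rrp6exo-, 1 gene was called, against 2 with the replicate block, 2 in edgeR with the block, 49 in DESeq2, 122 in DESeq2 with the block, 2 with the sum and the block, 2 with the 4 libraries alone and 1 to 2 with 1 library left out. Between the replicate numbers 1054 genes and 9 hexose genes were called, with ranges of 508 to 1546 and 6 to 10 when 1 library was left out. The causes were not tested.

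The same total moved the median of all genes to 0.16 in rrp6Δ against WT and 0.12 in Rrp6exo- against WT, and turned 4 uncalled differences of rrp6Δ from WT positive: HXT4 0.072, HXT5 0.041, SNF3 0.04 and RGT2 0.10. For HXT7 in rrp6Δ against WT edgeR gave 0.047 and DESeq2 0.028, and for HXT4 in Rrp6exo- against WT edgeR gave −0.11 and DESeq2 −0.12. Leaving out 1 library unbalances the replicate numbers between strains, and most uncalled log2 fold changes then crossed 0. In rrp6Δ against WT they ranged over −0.17 to 0.28 for HXT1, −0.73 to 0.76 for HXT2, −0.54 to 0.11 for HXT3, −1.01 to 0.84 for HXT4, −0.99 to 0.77 for HXT5, −0.75 to 2.46 for HXT6, −1.80 to 1.04 for HXT7, −1.28 to 0.87 for HXK1, −0.35 to 0.13 for SNF3 and −0.24 to 0.12 for RGT2. In Rrp6exo- against WT they ranged over −0.021 to 0.42 for HXT1, −1.03 to 0.62 for HXT2, −0.58 to 0.079 for HXT3, −0.89 to 0.96 for HXT4, −1.28 to 0.48 for HXT5, −0.55 to 1.03 for HXT7, −1.60 to 0.55 for HXK1 and −0.13 to 0.34 for SNF3. In rrp6Δ against Rrp6exo- they ranged over −0.60 to 1.04 for HXT2, −0.28 to 0.35 for HXT3, −0.92 to 0.69 for HXT4, −0.45 to 1.03 for HXT5, −2.04 to 0.81 for HXT7, −0.70 to 1.34 for HXK1 and −0.46 to 0.023 for SNF3. A lone library of a strain was assumed to vary like the other strains. Apart from the hexose calls given above, the block changed no call of the 10 genes. Low counts and near-identical sequence both limit HXT6 and HXT7, with 21 reads for HXT7 in replicate 1 of rrp6Δ. Only 4.93% of the windows of 50 bases in each of them occur once in the genome.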
